A study of Mus musculus with 2 samples.

Results

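The 8 imprinted genes H19, Mest, Plagl1, Peg3, Ndn, Sgce, Grb10 and Rian were described across fibroblast, endothelial, mural, mesothelial and macrophage cells of the injured and the sham mouse heart. They were chosen by name, with earlier values from these cells in view, out of 21745 genes listed in both count tables, and all 8 were found there. Levels and folds of these genes are therefore descriptions and no test was made on them. The study profiled single heart cells by Drop-seq, a droplet method that gives each captured RNA a barcode for its cell and another for the molecule (the unique molecular identifier, UMI), read near the 3′ end. The myocardial infarction (MI) library came from 1 wild type C57BL6/J heart, whose left anterior descending artery had been tied 14 days earlier. The sham library came from 4 pooled hearts of the same strain, 14 days after the same surgery without a tightened suture. All mice were male and 8 to 10 weeks old, and no allele, transgene or drug was used.

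Imprinted genes are transcribed mainly from either the maternal or the paternal copy, a choice set by DNA methylation in the germ line. Many of them act on fetal growth, are high in embryonic and neonatal tissue and are silenced after birth, and some return in repairing tissue. In this inbred strain the parental copies carry the same sequence, so UMI counts cannot tell which copy was transcribed, and every value below is a total RNA level.

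The 8 genes fall into 3 roles. The noncoding RNAs, both expressed from the maternal copy, are H19, which restrains growth in the mouse embryo and is the precursor of miR-675, and Rian, a long transcript in the Dlk1-Dio3 region that carries small nucleolar RNAs and microRNAs. The regulators of transcription and of the cell cycle, all expressed from the paternal copy, are Plagl1, a zinc finger protein that in the mouse activates a network of other imprinted genes, Peg3, a further zinc finger protein, and Ndn, a MAGE family protein that restrains cell division. The enzymes, membrane and signalling proteins are Mest, a member of the alpha/beta hydrolase fold family, Sgce, the epsilon subunit of the sarcoglycan complex at the cell membrane, and Grb10, an adaptor that dampens signalling from the insulin and insulin-like growth factor receptors.

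In the GENCODE vM21 annotation of GRCm38, H19 is a noncoding gene on the minus strand at chr7:142575529-142578143, and the hairpin of miR-675 lies inside it. Mest lies on the plus strand at chr6:30723547-30748465, holds the hairpin of miR-335, and shares its last 912 bases with Copg2 on the opposite strand. Plagl1 lies on the plus strand at chr10:13060504-13131694 and Peg3 on the minus strand at chr7:6703892-6730431. Ndn lies on the plus strand at chr7:62346569-62350262, wholly within the noncoding gene Gm32061 on the opposite strand. Sgce lies on the minus strand at chr6:4674350-4747207 and Grb10 on the minus strand at chr11:11930508-12038683. Rian lies on the plus strand at chr12:109603940-109661716 and holds the hairpins of 3 microRNAs in the RefSeq table. Whether the counting used strand is not stated in any source used, so UMIs of Mest and Copg2 at their shared end, and of Ndn and Gm32061, cannot be told apart.

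The small RNAs that H19, Mest and Rian carry were not measured, since Drop-seq captures polyadenylated RNA. They are shown because a precursor level is the only view of them that these data give. The mature sequences from RefSeq, GRCm38.p6, are written 5′ to 3′ with the seed, bases 2 to 8, in capitals.
miR-675-5p: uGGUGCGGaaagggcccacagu
miR-675-3p: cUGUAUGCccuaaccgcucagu
miR-335-5p: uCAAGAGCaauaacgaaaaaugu
miR-335-3p: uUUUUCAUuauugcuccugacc
miR-370-5p: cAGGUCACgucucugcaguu
miR-370-3p: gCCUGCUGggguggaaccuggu
The first pair comes from H19, the next from Mest and the last from Rian, and none of the 6 seeds is shared with another of them.

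Promoter windows, 250 bases before to 50 after an annotated start, were in the RefSeq table (GRCm38.p6) for 6 of the 8 genes. Those of Plagl1 and Mest, higher in MI fibroblasts and endothelial cells below, and of Ndn, lower in MI fibroblasts, are shown with each CpG, the site of DNA methylation, in capitals. Their coordinates are chr10:13090582-13090881, chr6:30737803-30738102 and chr7:62348027-62348326, all on the plus strand.
Plagl1: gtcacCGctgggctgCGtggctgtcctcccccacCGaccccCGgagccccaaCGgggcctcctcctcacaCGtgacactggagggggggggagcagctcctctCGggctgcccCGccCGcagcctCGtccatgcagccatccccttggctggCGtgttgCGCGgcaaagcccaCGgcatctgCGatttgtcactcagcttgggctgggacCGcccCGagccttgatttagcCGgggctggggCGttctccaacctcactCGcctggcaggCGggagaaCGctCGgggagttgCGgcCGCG
Mest: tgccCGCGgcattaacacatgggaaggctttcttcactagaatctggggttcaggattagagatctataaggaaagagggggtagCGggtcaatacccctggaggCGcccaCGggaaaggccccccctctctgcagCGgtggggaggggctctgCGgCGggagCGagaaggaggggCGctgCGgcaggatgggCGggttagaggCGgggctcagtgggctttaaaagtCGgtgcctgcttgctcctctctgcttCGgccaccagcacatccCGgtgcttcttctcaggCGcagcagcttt
Ndn: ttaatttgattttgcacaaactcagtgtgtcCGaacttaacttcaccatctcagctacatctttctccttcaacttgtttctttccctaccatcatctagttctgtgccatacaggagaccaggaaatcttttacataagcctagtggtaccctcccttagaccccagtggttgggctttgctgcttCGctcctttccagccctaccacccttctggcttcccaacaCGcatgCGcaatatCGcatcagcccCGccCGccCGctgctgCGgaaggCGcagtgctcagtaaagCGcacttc
The Plagl1 window holds 26 CpGs, the Mest window shown 17 and the Ndn window 11, against a median of 7 over 32841 windows of the same length. The table has 2 more Mest windows, at chr6:30737800-30738099 with 17 CpGs and at chr6:30733256-30733555 with 8. The Peg3 window holds 13 CpGs, the Grb10 windows 9 and 45, and the Rian window 0. Methylation was not measured here, so these counts describe the windows alone.

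The MI table held 8555 barcodes and 33275336 UMIs, and the sham data 6337 barcodes and 11307405 UMIs, and 5 barcodes occurred in both. After filtering, 8301 MI and 5971 sham cells remained, and each was assigned to a class only where its marker level stood clear of every other class. This gave 2992 MI and 1661 sham fibroblasts, 305 and 1745 endothelial cells, 50 and 135 mural cells, 124 and 78 mesothelial cells and 3126 and 1232 macrophages. The cells with no clear class were 17.5% of MI and 16.2% of sham cells. MI cells were deeper, with a median of 5298 UMIs per fibroblast against 1503 in sham. Levels are UMIs summed over the cells of a class as counts per 1000000 UMIs of that class (CPM), so they compare classes and libraries for the same gene. Intervals are 95% counting intervals of these UMIs. They cover neither variation between hearts, since there is 1 library per condition, nor variation between cells of a class. Depth, heart and condition cannot be told apart.

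The classes carried the RNA of their own markers, with some mixing. Fibroblast markers summed to 49869 CPM in MI fibroblasts and 30768 CPM in sham fibroblasts, and endothelial markers to 10743 CPM in MI and 23597 CPM in sham endothelial cells. MI endothelial cells carried 2167 CPM of fibroblast markers, against 444.1 CPM in sham endothelial cells. MI mural cells carried 10074 CPM of fibroblast markers beside 8163 CPM of their own, and sham mural cells 8774 CPM of endothelial markers beside 19385 CPM of their own. MI mesothelial cells carried 20181 CPM of fibroblast markers beside 5874 CPM of their own, and sham mesothelial cells 8303 CPM beside 9159 CPM. In MI macrophages fibroblast markers reached 1747 CPM, against 263.6 CPM in sham macrophages. The part of this RNA in the levels below was not tested. Different clusters made up most of a class in each library: when both libraries were clustered together, the largest macrophage clusters held 2496 MI and 10 sham cells and 12 MI and 1365 sham cells. The fibroblast clusters split likewise, with 2303 MI and 1 sham cell in one and 5 MI and 1861 sham cells in another, and so did the endothelial clusters, with 232 MI and 1 sham cell and 17 MI and 1901 sham cells, although another endothelial cluster mixed 229 MI with 177 sham cells. The only mesothelial cluster held 0 MI and 83 sham cells, so the gated MI mesothelial cells lay in clusters of other classes. A difference between libraries within a class is thus also a difference between such clusters.

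**Figure D1:**
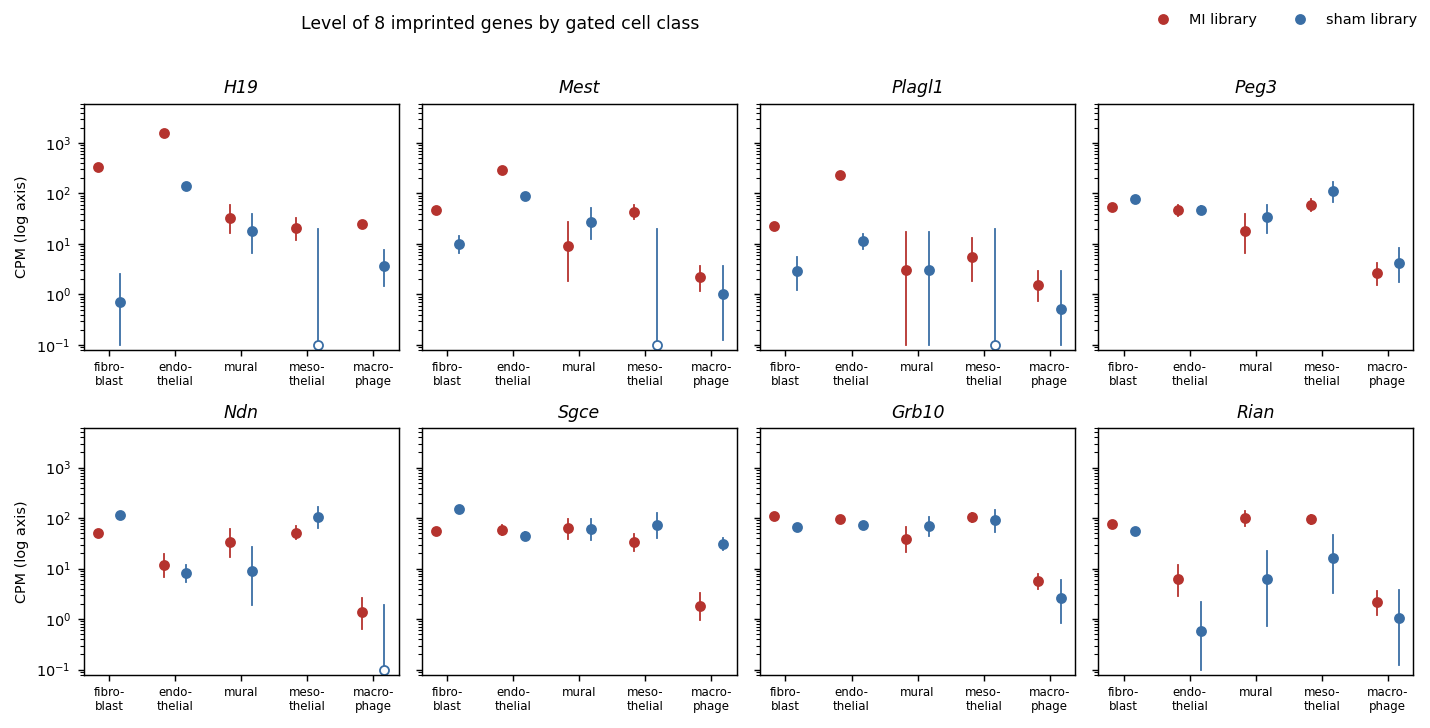
Level of each of the 8 genes, in CPM on a log axis, in the 5 gated cell classes of the MI library (red) and the sham library (blue). Points are class sums, vertical lines 95% Poisson counting intervals, and open points on the axis foot mark 0 UMIs. H19, Mest and Plagl1 stand highest in MI endothelial cells, and 7 of the 8 genes are at their lowest in macrophages in the MI library. For Mest, Plagl1 and Rian that macrophage interval overlaps the interval of the next class.

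H19 was nearly silent in sham fibroblasts and abundant in MI fibroblasts. The MI fibroblasts held 6120 H19 UMIs, or 328.8 CPM, in 850 of 2992 cells. The sham fibroblasts held 2 H19 UMIs, or 0.711 CPM, in 2 of 1661 cells. The log2 ratio of MI over sham was 8.85 (7.00 to 11.90). With classes taken from clusters in place of the gate the sham level was 4.76 CPM and the log2 ratio 5.99. At an equal depth of 500 UMIs per cell, 9.93% of MI fibroblasts (8.88% to 11.1%) and 0.0602% of sham fibroblasts (0.00152% to 0.335%) had an H19 UMI. Classes not known for H19 give a comparison: at that depth 1.50% of MI macrophages and 1.65% of MI lymphocytes had an H19 UMI, with median depths of 1810 and 1364.5 UMIs before thinning. The MI fibroblast share was higher than both, and free RNA was not estimated.

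Endothelial cells were the class with the highest H19 level in both libraries. MI endothelial cells held 2273 H19 UMIs, or 1605 CPM (1539 to 1672), and sham endothelial cells held 472, or 140.6 CPM (128.2 to 153.9). The log2 ratio was 3.51 (3.37 to 3.66). Under a stricter gate the MI level was 710.5 CPM, the sham level 119.8 CPM and the log2 ratio 2.57. The UMIs sat in few cells: 82 of 305 MI cells carried them at 27.7 UMIs per positive cell, and 13 cells held at least 50% of them. In sham, 50 of 1745 endothelial cells carried 9.44 UMIs each and 9 cells held at least 50%. Genes of like total in the same cells had a median of 7.87 UMIs per positive cell in MI and 1.34 in sham. None of 59 such genes in MI and 1 of 599 in sham was as concentrated as H19.

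In the other classes H19 was low. MI mural cells held 11 H19 UMIs and sham mural cells 6, a log2 ratio of 0.86 (-0.70 to 2.58), which with classes from clusters was 3.16, at 16.1 CPM in MI and 1.81 CPM in sham. MI mesothelial cells held 18 H19 UMIs, 14 of them in 1 cell, and sham mesothelial cells held 0, with an interval that reached 19.6 CPM. MI macrophages held 160 H19 UMIs spread over 145 cells, or 24.7 CPM, and sham macrophages held 7, all in 1 cell, or 3.62 CPM. The log2 ratio in macrophages was 2.77 (1.70 to 4.11). MI lymphocytes held 35, of which 26 sat in 1 cell, and without that cell their level was 28.6 CPM, close to that of MI macrophages. Over the 5 classes in MI the order was endothelial, fibroblast, mural, macrophage and mesothelial, and the intervals of the last 3 overlapped between neighbours.

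Npr3, the natriuretic peptide clearance receptor, marks the endocardium among endothelial cells of the heart. A division of endothelial cells by Npr3, chosen after H19 was seen to be concentrated, found 61 of 305 MI cells (a share between 15.7% and 24.9%) and 90 of 1745 sham cells (between 4.17% and 6.30%) with 2 or more Npr3 UMIs. At 500 UMIs per cell 13.8% of MI and 4.36% of sham endothelial cells had an Npr3 UMI. The cells with 2 or more held 85.4% of the endothelial H19 UMIs in MI and 95.8% in sham. Their H19 level was 4556 CPM in MI and 2084 CPM in sham, with a log2 ratio of 1.13 (0.98 to 1.28). In endothelial cells with no Npr3 UMI the H19 level was 176.4 CPM in MI and 4.85 CPM in sham, a log2 ratio of 5.18 (4.42 to 6.06). Both the share of Npr3 cells and the H19 level within each subset were thus higher in MI. Npr3 itself stood at 1324 CPM in MI and 3652 CPM in sham cells with 2 or more Npr3 UMIs. Cells with 2 or more Npr3 UMIs were also deeper on average than cells with none in both libraries. Whether each subset holds like cells in MI and sham was not tested. Col1a2, a fibroblast collagen gene, stood at 751.1 CPM in the MI and 202.9 CPM in the sham cells with 2 or more Npr3 UMIs, and at 570.4 and 57.9 CPM in MI and sham cells with none.

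**Figure D2:**
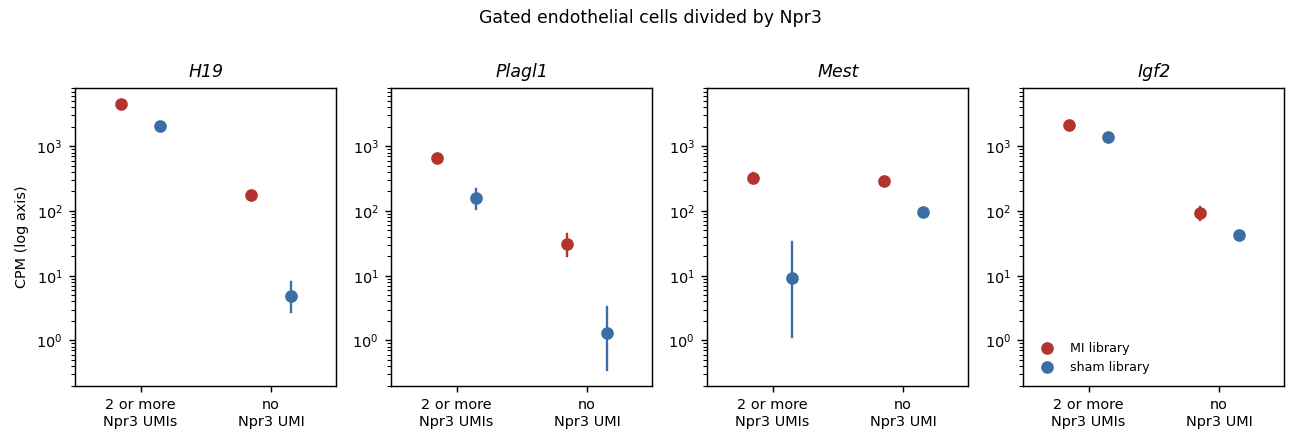
Level of H19, Plagl1, Mest and the H19 neighbour Igf2, in CPM on a log axis, in gated endothelial cells with 2 or more Npr3 UMIs and with none, in the MI (red) and sham (blue) libraries. Vertical lines are 95% Poisson counting intervals, some smaller than the points. H19, Plagl1 and Igf2 stand higher in the Npr3 cells of both libraries, while Mest in sham stands at 9.22 CPM there and at 97.0 CPM in cells with no Npr3 UMI.

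Plagl1 followed the same subset. MI fibroblasts held 415 Plagl1 UMIs, or 22.3 CPM, and sham fibroblasts 8, or 2.84 CPM, a log2 ratio of 2.97 (1.98 to 4.19). MI endothelial cells held 324, or 228.7 CPM, and sham endothelial cells 38, or 11.3 CPM, a log2 ratio of 4.34 (3.85 to 4.86). The stricter gate put the MI endothelial level at 75.1 CPM and the log2 ratio at 2.98. In cells with 2 or more Npr3 UMIs Plagl1 stood at 647.8 CPM in MI and 156.8 CPM in sham, with a log2 ratio of 2.05 (1.53 to 2.61). In those with none it stood at 30.5 CPM in MI, from 28 UMIs, and at 1.29 CPM in sham, from 4 UMIs. Mural cells held 1 Plagl1 UMI in each library, mesothelial cells 5 in MI and 0 in sham, and macrophages 10 in MI and 1 in sham, too few to order these classes.

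Mest was highest in endothelial cells too, but in sham it lay in other cells of that class than H19. MI endothelial cells held 419 Mest UMIs, or 295.8 CPM (268.2 to 325.5), and sham endothelial cells 304, or 90.5 CPM (80.7 to 101.3), a log2 ratio of 1.71 (1.49 to 1.93). In sham, 98.7% of these UMIs lay in cells with no Npr3 UMI and 0.658% in cells with 2 or more. In MI the shares were 63.2% and 32.9%. Cells with 2 or more Npr3 UMIs held 138 Mest UMIs in MI and 2 in sham, a log2 ratio of 5.13 (3.25 to 8.19), while in cells with none the ratio was 1.57 (1.33 to 1.82). The level in MI Npr3 cells, 323.9 CPM, was thus close to the 288.5 CPM of the other MI endothelial cells.

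In fibroblasts Mest stood at 47.3 CPM in MI, from 881 UMIs, and at 9.95 CPM in sham, from 28 UMIs, a log2 ratio of 2.25 (1.71 to 2.85). The MI UMIs sat in 249 of 2992 cells at 3.54 per positive cell, and 21 cells held at least 50% of them. Of 1155 genes of like total, 4 were as concentrated, and their median was 1.32. MI mesothelial cells held 39 Mest UMIs, or 43.9 CPM, and sham mesothelial cells 0, a log2 ratio of at least 1.46. Macrophages were near 0, with 14 Mest UMIs in MI and 2 in sham. H19, Mest and Plagl1 were thus the 3 members with a higher level in MI in both fibroblasts and endothelial cells by at least 2-fold.

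**Figure D3:**
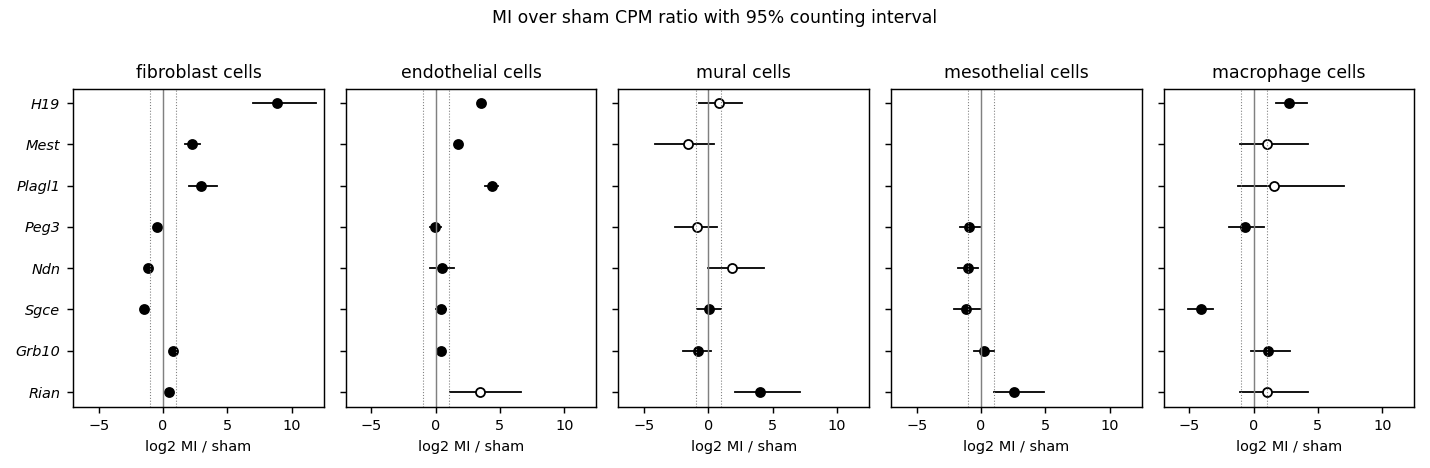
The log2 ratio of MI over sham CPM for each of the 8 genes in each gated class, with 95% counting intervals. Filled points have at least 20 UMIs over both libraries, open points fewer, dotted lines mark 2-fold, and pairs with 0 UMIs in either library or no more than 3 in both are left out. H19, Plagl1 and Mest lie right of 2-fold in fibroblast and endothelial cells, while Sgce lies left of it in fibroblast, mesothelial and macrophage cells.

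Ndn and Sgce, whose highest class in sham was the fibroblast, were lower there in MI. For Ndn the fibroblast and mesothelial intervals overlapped in sham. Ndn stood at 51.8 CPM in MI fibroblasts, from 965 UMIs, and at 117.3 CPM in sham fibroblasts, from 330 UMIs. Its log2 ratio was -1.18 (-1.36 to -0.99), and -0.96 under median-of-ratios scaling, which takes it to the other side of 2-fold. Sgce stood at 55.2 CPM in MI fibroblasts, from 1027 UMIs, and at 151.4 CPM in sham fibroblasts, from 426 UMIs, a log2 ratio of -1.46 (-1.62 to -1.29). Equal depth gave the same order: 3.31% of MI and 7.53% of sham fibroblasts had an Sgce UMI, and 2.87% of MI and 5.24% of sham fibroblasts an Ndn UMI.

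Mesothelial cells, the epithelial cover of the heart, showed the same direction for both genes. Ndn stood at 51.8 CPM in MI and 106.3 CPM in sham mesothelial cells, a log2 ratio of -1.04 (-1.83 to -0.20). Sgce stood at 33.7 CPM in MI and 74.4 CPM in sham mesothelial cells, a log2 ratio of -1.14 (-2.10 to -0.11). These rest on 46 and 20 Ndn UMIs and on 30 and 14 Sgce UMIs in MI and sham. Fibroblast markers summed to 20181 CPM in the MI mesothelial cells, beside 5874 CPM of mesothelial ones. The part of fibroblast RNA in these ratios was not tested. Over all endothelial cells neither gene was lower in MI: Sgce stood at 59.3 CPM in MI and 44.7 CPM in sham, a log2 ratio of 0.41 (0.01 to 0.80), and Ndn at 12.0 CPM in MI and 8.34 CPM in sham, a log2 ratio of 0.53 (-0.44 to 1.45). Sgce differed by subset, at 46.9 CPM in MI and 92.2 CPM in sham cells with 2 or more Npr3 UMIs, a ratio of -0.97 (-1.94 to -0.00), and at 59.9 CPM in MI and 41.4 CPM in sham cells with none, a ratio of 0.53 (0.05 to 1.00). Mural Sgce was alike in both libraries within its interval, at 63.7 CPM in MI and 61.2 CPM in sham, a log2 ratio of 0.06 (-0.90 to 1.02).

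Sgce was the only one of the 8 genes with a clear level in sham macrophages. There 60 UMIs in 54 of 1232 cells gave 31.0 CPM (23.7 to 39.9). In MI macrophages 12 UMIs in 12 of 3126 cells gave 1.86 CPM (0.959 to 3.24), a log2 ratio of -4.06 (-5.09 to -3.15). At equal depth 0.0960% of MI and 0.893% of sham macrophages had an Sgce UMI. Fibroblast markers in sham macrophages summed to 263.6 CPM, below the 1747 CPM in MI macrophages, and their part in the Sgce level was not tested. Sham lymphocytes, 55 cells, held 0 Sgce UMIs, with an interval that reached 36.4 CPM.

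The Peg3 point ratios lay within 2-fold between the libraries in the 5 classes. It stood at 53.8 CPM in MI and 76.1 CPM in sham fibroblasts, a log2 ratio of -0.50 (-0.72 to -0.28), and at 46.6 CPM in MI and 48.0 CPM in sham endothelial cells, a log2 ratio of -0.04 (-0.48 to 0.38). The endothelial value changed sign, to 0.01, under median-of-ratios scaling. Its highest class in both libraries was mesothelial, at 59.6 CPM in MI and 111.6 CPM in sham, with a log2 ratio of -0.90 (-1.66 to -0.10). The mesothelial and fibroblast intervals overlapped in both libraries. Macrophages had a ratio of -0.65 (-1.94 to 0.77), and mural cells, with 6 MI and 11 sham UMIs, one of -0.89 (-2.61 to 0.67). These intervals run past 2-fold. At 500 UMIs per cell the Peg3 ratio was -0.74 in fibroblasts and -0.81 in endothelial cells, both outside the counting intervals above. At that depth 0 MI mural cells held a Peg3 UMI, so the mural ratio had only an upper bound, 0.70.

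Grb10 was detected in all 5 classes. It stood at 112.7 CPM in MI and 67.2 CPM in sham fibroblasts, a log2 ratio of 0.75 (0.53 to 0.97). MI endothelial cells had 95.3 CPM and sham endothelial cells 72.1 CPM, a log2 ratio of 0.40 (0.09 to 0.71). In mesothelial cells the levels were 103.5 CPM in MI and 90.4 CPM in sham, with a log2 ratio of 0.20 (-0.56 to 1.04). Mural cells stood at 39.4 CPM in MI, below the intervals of the fibroblast, mesothelial and endothelial classes there, and at 70.4 CPM in sham, with a log2 ratio of -0.84 (-1.94 to 0.21). In sham the intervals of neighbouring classes overlapped along the whole order of mesothelial, endothelial, mural and fibroblast. Macrophages held 37 Grb10 UMIs in MI and 5 in sham, a log2 ratio of 1.15 (-0.20 to 2.85).

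Rian was near 0 in endothelial cells, and in sham it had a clear level only in fibroblasts. It stood at 75.3 CPM in MI and 55.1 CPM in sham fibroblasts, a log2 ratio of 0.45 (0.21 to 0.70), which at equal depth was -0.02. Endothelial cells held 9 Rian UMIs in MI and 2 in sham, or 6.35 and 0.596 CPM. MI mural cells stood at 100.1 CPM, from 33 UMIs, and sham mural cells at 6.12 CPM, from 2 UMIs, a log2 ratio of 4.03 (2.06 to 7.14). At equal depth 0 sham mural cells held a Rian UMI, and the ratio was at least 1.85. MI mesothelial cells stood at 94.5 CPM and sham mesothelial cells at 15.9 CPM, from 3 UMIs, a log2 ratio of 2.57 (0.97 to 4.87). The MI mural level lay beside 10074 CPM of fibroblast markers in the same cells, and the MI mesothelial level beside 20181 CPM. The part of fibroblast RNA in either level was not tested.

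Counted by size, 3 of 8 genes in fibroblasts were at least 2-fold higher in MI (H19, Mest and Plagl1), against 13.6% of the 13720 genes with at least 20 UMIs there, and 2 of 8 at least 2-fold lower (Ndn and Sgce), against 20% of those genes. In endothelial cells 3 of 7 counted genes were higher, the same as in fibroblasts, against 10.5% of all genes, and 0 of 7 lower, against 14.3%. In mesothelial cells 2 of 6 were higher (Mest and Rian), against 17.1%, and 2 of 6 lower (Ndn and Sgce), against 13.6%. In macrophages 2 of 4 were higher (H19 and Grb10), against 8.81%, and 1 of 4 lower (Sgce), against 11.9%. In mural cells 1 of 3 was higher (Rian), against 12.9%, and 0 of 3 lower, against 23.9%. The members were picked with these contrasts known, so the shares of all genes stand beside the counts as background and nothing is read from the difference. The median log2 ratio of the counted members was 0.60 in fibroblasts, against -0.20 over all genes, and 0.53 in endothelial cells, against -0.05. It was 0.06 in mural cells, against -0.17, 0.25 in macrophages, against -0.11, and -0.35 in mesothelial cells, against 0.03.

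Macrophages, which are of blood origin or embryonic residents rather than stroma, were at the low end for nearly every member. In MI they had the lowest level of the 5 classes for 7 of 8 genes, all but H19, against 28.6% of 14344 genes over the library. For Mest, Plagl1 and Rian the MI macrophage interval overlapped that of the next class, so the lowest class is not settled for them. In sham they were the lowest for 4 of 8, against 26.7% of 13055 genes. Those 4 sham genes were Peg3, Ndn, Sgce and Grb10, and the other 4 had their lowest level in a class with no more than 2 UMIs. The macrophage and endothelial intervals of Sgce overlapped in sham.

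Within MI fibroblasts the 850 cells with an H19 UMI differed from the 2142 without one in some imprinted genes and not in others. Their median depth was 6006.5 UMIs, against 5023 in cells without H19. Mest stood at 110.0 CPM in cells with H19 and 18.2 CPM in cells without it, a log2 ratio of 2.60 (2.38 to 2.82). Igf2, the fetal growth factor gene 72.6 kb from H19, stood at 44.7 CPM with H19 and 2.99 CPM without it, a log2 ratio of 3.90 (3.41 to 4.43). Cdkn1c, an imprinted inhibitor of cyclin-dependent kinases, stood at 173.3 CPM with H19 and 52.4 CPM without it, a log2 ratio of 1.73 (1.58 to 1.87). Plagl1 had a log2 ratio of 0.76 (0.48 to 1.05) and Grb10 of 0.43 (0.30 to 0.56). The intervals of Peg3, Ndn, Sgce and Rian held 0, with ratios between 0.06 and 0.13, and that of Meg3, the noncoding neighbour of Rian, was -0.06 to 0.05. Genes outside the imprinted list differed too: the log2 ratio was 1.99 (1.69 to 2.30) for Tnmd and 1.36 (1.33 to 1.40) for Ptn. It was 0.86 for Sfrp2 and 0.71 for Sfrp1, but 0.17 for Col1a2 and 0.12 for Cdh11. The endothelial gene Pecam1 stood at 6.60 CPM with H19 and 2.44 CPM without it. Plvap stood at 9.99 CPM with H19 and 2.52 CPM without it, Vwf at 7.79 and 1.81 CPM with and without it, Emcn at 10.3 and 4.01 CPM, and Npr3 at 8.80 and 5.19 CPM. The endothelial marker Fabp4 went the other way, at 43.7 CPM with H19 and 84.1 CPM without it. Its log2 ratio was -0.95 (-1.15 to -0.75). The part of endothelial RNA in these differences was not tested.

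**Figure D4:**
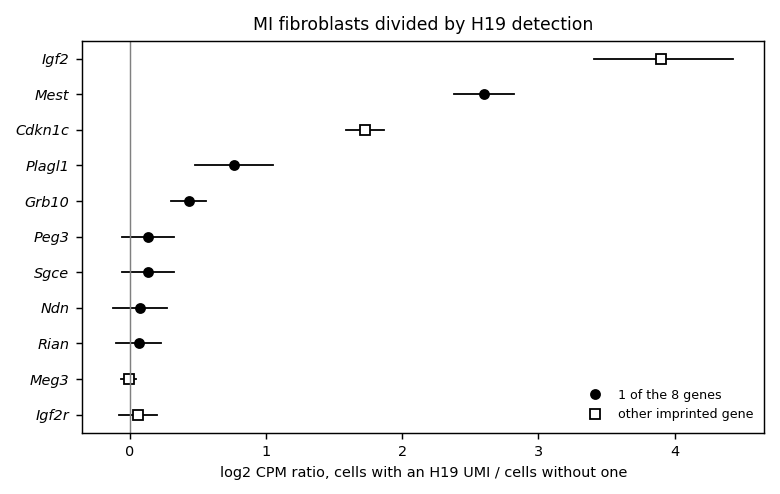
The log2 CPM ratio of MI fibroblasts with an H19 UMI over MI fibroblasts without one, for 7 of the 8 genes (filled circles) and 4 further imprinted genes (open squares), with 95% counting intervals. Igf2, Mest and Cdkn1c lie farthest right, and Peg3, Sgce, Ndn, Rian, Meg3 and Igf2r lie on 0 within their intervals.

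Endothelial cells were divided in the same way. Here too the cells with H19 were deeper, with more UMIs per cell on average than those without it in both libraries. Among MI endothelial cells Plagl1 stood at 523.8 CPM in the 82 cells with H19 and 19.3 CPM in the 223 without it, and Igf2 at 1903 CPM with H19 and 45.9 CPM without it. Mest differed less, at 428.6 CPM with H19 and 201.6 CPM without it. In sham the 50 endothelial cells with H19 had 189.7 CPM of Plagl1 and 1688 CPM of Igf2, and 44.3 CPM of Mest, against 92.8 CPM of Mest in those without H19. Other genes did not repeat the fibroblast values. In MI endothelial cells the log2 ratio of cells with H19 over cells without it was 1.12 (0.37 to 1.89) for Peg3, 2.20 (0.50 to 4.27) for Ndn, 2.23 (1.38 to 3.17) for Meg3 and 1.68 (1.26 to 2.11) for Igf2r, while in MI fibroblasts the interval of this ratio spanned 0 for each of these 4 genes. It was -0.13 (-0.66 to 0.38) for Grb10 and -0.35 (-1.05 to 0.32) for Sgce. Cdkn1c stood at 557.9 CPM with H19 and 64.0 CPM without it in MI, a ratio of 3.12 (2.70 to 3.57), but at 221.3 CPM with H19 and 347.9 CPM without it in sham, a ratio of -0.65 (-1.18 to -0.17).

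The genes also differed with fibroblast state. Among MI fibroblasts, 604 cells had at least 2 cell cycle markers. H19 stood at 303.3 CPM in cycling cells and 338.2 CPM in the other 2388, a log2 ratio of -0.16 (-0.24 to -0.07). Mest was higher in cycling cells, at 64.4 and 41.0 CPM in cycling and other cells, a ratio of 0.65 (0.45 to 0.85). Plagl1 was lower in cycling cells, at 13.6 and 25.5 CPM in cycling and other cells, a ratio of -0.91 (-1.31 to -0.53), and Sgce too, with -0.46 (-0.68 to -0.24). A division at the median share of contractile genes, which mark myofibroblasts, put H19 at 268.6 CPM in the upper 1496 cells and 410.6 CPM in the lower 1496, a ratio of -0.61 (-0.69 to -0.54). Plagl1, Sgce and Peg3 were also lower in the contractile cells, with ratios of -0.59, -0.55 and -0.50, while Rian was higher by 0.27 (0.12 to 0.43) and the intervals of Mest and Ndn held 0.

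Beyond the 8, a list of 50 further genes known as imprinted in the mouse was read the same way, and 41 were in both tables. In fibroblasts 30 of these had at least 20 UMIs, of which 6 were at least 2-fold higher in MI and 5 lower, with a median log2 ratio of -0.13, against -0.20 over all genes. In endothelial cells 4 of 22 were higher and 1 lower, with a median of 0.32, against -0.05. In macrophages 2 of 15 were higher and 2 lower, with a median of -0.02, against -0.11. In mural cells 2 of 10 were higher and 2 lower, with a median of -0.15, against -0.17. In mesothelial cells 2 of 15 were higher and 4 lower, with a median of -0.40, against 0.03. The shares of all genes past 2-fold higher and lower were 13.6% and 20% in fibroblasts, 10.5% and 14.3% in endothelial, 8.81% and 11.9% in macrophage, 12.9% and 23.9% in mural and 17.1% and 13.6% in mesothelial cells.

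**Figure D5:**
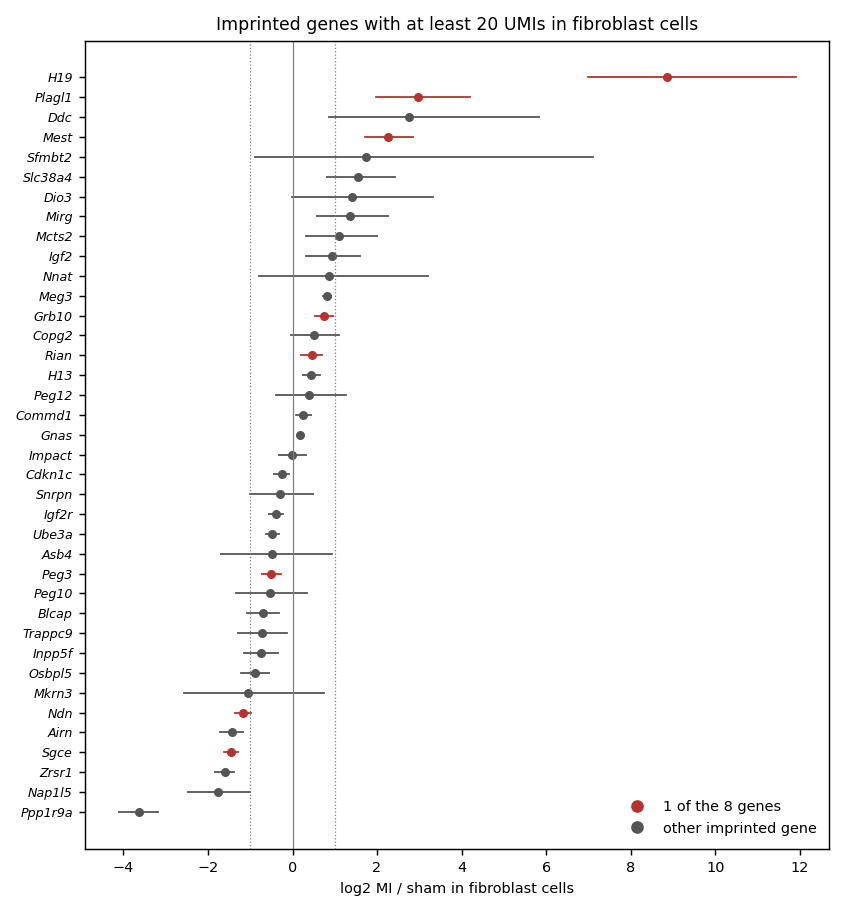
The log2 ratio of MI over sham CPM in fibroblasts for the 38 imprinted genes with at least 20 UMIs, sorted by ratio, with 95% counting intervals. Red marks the 8 genes, grey the other imprinted genes, and dotted lines mark 2-fold. H19 stands apart at 8.85, and Ppp1r9a lies lowest at -3.63.

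Igf2 was higher with H19 in endothelial cells and less so in fibroblasts. It stood at 816.9 CPM in MI and 128.7 CPM in sham endothelial cells, a log2 ratio of 2.67 (2.51 to 2.83), and at 16.2 CPM in MI and 8.53 CPM in sham fibroblasts, a ratio of 0.93 (0.33 to 1.59). Cdkn1c was within 2-fold in these 2 classes, at 90.8 CPM in MI and 108.8 CPM in sham fibroblasts and 269.0 CPM in MI and 341.9 CPM in sham endothelial cells. It was lower in MI in the other classes, with log2 ratios of -1.39 (-2.17 to -0.65) in mural, -4.46 (-5.05 to -3.91) in mesothelial and -1.92 (-2.45 to -1.40) in macrophage cells. Behind the endothelial value lay opposite directions: with 2 or more Npr3 UMIs Cdkn1c stood at 619.7 CPM in MI and 235.2 CPM in sham, and with none at 88.2 CPM in MI and 350.4 CPM in sham. Igf2r, which clears insulin-like growth factor 2 from the cell surface, had a log2 ratio of -0.40 (-0.56 to -0.23) in fibroblasts and 0.99 (0.73 to 1.25) in endothelial cells.

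The noncoding neighbours of Rian on chromosome 12 were Meg3, 32.2 kb away, and Mirg, 68.0 kb away, both on the same strand. Meg3 stood at 645.6 CPM in MI and 369.0 CPM in sham fibroblasts, a log2 ratio of 0.81 (0.72 to 0.90), and Mirg at 12.8 CPM in MI and 4.98 CPM in sham, a ratio of 1.36 (0.59 to 2.25). Dlk1, the protein-coding gene expressed from the other parental copy of that region, held 14 UMIs in MI and 0 in sham fibroblasts, below the 20 needed for a count. Sgce begins 0.1 kb from Peg10, which held 73 UMIs in MI and 16 in sham fibroblasts, a ratio of -0.54 (-1.33 to 0.34). Ppp1r9a, on the same chromosome 155.7 kb from Sgce and coding for the actin-binding neurabin, stood at 3.33 CPM in MI and 41.2 CPM in sham fibroblasts, a ratio of -3.63 (-4.10 to -3.17). Copg2, which overlaps Mest, had a ratio of 0.51 (-0.03 to 1.09) in fibroblasts. Ddc, which codes for aromatic amino acid decarboxylase 32.4 kb from Grb10, held 90 UMIs in MI and 2 in sham fibroblasts, a ratio of 2.77 (0.87 to 5.83).

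Of the remaining imprinted genes in fibroblasts, the amino acid transporter gene Slc38a4 had a log2 ratio of 1.56 (0.81 to 2.41) and Mcts2 of 1.10 (0.31 to 1.99). The splicing factor relative Zrsr1 had a ratio of -1.61 (-1.83 to -1.38), the noncoding RNA Airn, which silences Igf2r on the paternal copy, -1.44 (-1.72 to -1.16), and Nap1l5 -1.75 (-2.46 to -1.01). Airn overlaps Igf2r, so without strand their UMIs cannot be told apart either.

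Likeness between profiles was read over the 10 class and library levels, as Pearson's r of log2 values after adding 10 CPM, which is a description over points that share libraries. H19, Mest and Plagl1 were like each other, with r of 0.87 for H19 and Mest, 0.91 for H19 and Plagl1 and 0.87 for Mest and Plagl1. Peg3 was most like Grb10 among the members, at 0.91, and Ndn most like Peg3, at 0.81. Among 9950 other genes ranked, the 8 members left out, the nearest to H19 were Smoc1, Rai14 and Gosr2, at 0.90 to 0.91, and to Plagl1 Smoc1, Tmem158 and Nrg1, at 0.95 to 0.98. Cda, Fscn1 and Fam57a were nearest to Mest, at 0.94 to 0.98. The list for Peg3 was Csf1, Kat6b and Cyr61, for Ndn Ehbp1, Igsf3 and Sh3d19, and for Grb10 Mageh1, Ppfibp1 and Cttn, all at 0.95 to 0.98. Sgce was nearest to Mesdc2, Kdelc2 and Nfia, at 0.92 to 0.95. Rian was nearest to RP23-103I12.13, Src and its neighbour Meg3, at 0.96 to 0.98.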

How the data were processed

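The values are raw counts of UMIs, as the authors deposited them, in a gene by barcode table for each library of heart cells profiled by Drop-seq. Per the submitters' processing notes the build was mm10 and Seurat was used, in a way they do not state. Which aligner, annotation and counting program (stranded or not) were used the sources do not give. No barcode had fewer than 500 genes, so cells had been selected before deposit. Per the labels' protocols, hearts were fixed and embedded, and how single cells were released is not described there.

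Cells with over 25% mitochondrial UMIs or under 200 genes were removed, 115 in MI and 34 in sham, and doublets called by scrublet in scanpy 1.11.5 were removed, 139 in MI (1.65%) and 332 in sham (5.27%). A cell joined a class if its summed markers, as log UMIs per 10000 over their 99th percentile, reached 0.4, exceeded every other class by 0.1 and came from at least 3 detected markers. The gate's numbers were set after the files were seen, 1 of the 98 markers was absent from both tables, and the study's own classes may differ. UMIs were summed per class and library over the shared genes. Levels have exact Poisson and log2 ratios exact conditional binomial 95% intervals (scipy 1.17.1), which cover counting error only. A class with 0 UMIs was set to 3 counts over the class, which makes a ratio a bound. No ratio was formed where both libraries had 3 or fewer. With 1 library per condition no test was possible. Shares are also given with each cell thinned to 500 UMIs, and no kept cell was shallower. Interval coverage was tested only on simulated Poisson counts, which is the model the intervals assume. That simulation left out the clumping of UMIs in few cells, so it cannot show how the intervals fare there.

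The 8 genes, the other imprinted genes and the marker lists were chosen with earlier results of these data known. Named further imprinted genes are up to 4 per direction with at least 50 UMIs in fibroblasts, ranked by the interval bound nearest to equality, plus Igf2, Cdkn1c, Dlk1, Meg3 and Igf2r. Peg10, Copg2, Pecam1, Plvap, Vwf, Emcn, Fabp4, Col1a2, Tnmd, Ptn, Sfrp1, Sfrp2 and Cdh11 were added after values were seen. The divisions of cells by Npr3 and by H19 were also added then. Alternatives were a stricter gate with a margin of 0.2, classes from Leiden clusters (leidenalg 0.10.2), doublets kept, no mitochondrial limit, cells weighted alike, median-of-ratios scaling, barcodes ending in N left out (317 in MI and 671 in sham), thinned cells, cycling cells left out and a minimum of 5 in place of 20 UMIs.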

Additional observations from a re-analysis of the deposited data

Results flagged for a closer look

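Sgce moved in opposite directions in different classes. Its log2 ratio of MI over sham was -1.46 in fibroblast, -1.14 in mesothelial and -4.06 in macrophage cells, against 0.41 in endothelial cells. The difference between classes was not tested, since each class has 1 MI and 1 sham value.

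Cells that joined no class, which enter none of the comparisons above, also differed between the libraries. In these 1455 MI and 965 sham cells the log2 ratio was 2.81 (2.55 to 3.08) for H19, 4.62 (3.49 to 6.08) for Plagl1 and 1.87 for Rian. H19 stood at 582.1 CPM in MI and 82.8 CPM in sham cells of this kind. Ndn was lower in MI, at 19.7 CPM against 44.7 CPM in sham, and so was Sgce, at 38.1 against 59.2 CPM. The intervals of Mest, Peg3 and Grb10 overlapped between the libraries. These cells carried endothelial markers at 1465 CPM in MI and 10644 CPM in sham and fibroblast markers at 12420 CPM in MI and 6381 CPM in sham, whose part in these ratios was not tested.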

How the results depend on the processing

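No paired analysis was possible because each condition has 1 library. Of 332 log2 ratios under other settings, 24 moved beyond their counting interval. The 3 genes higher in MI in both fibroblasts and endothelial cells kept a ratio above 1 under every setting tried there, and Sgce in fibroblasts and macrophages kept one below -1. Leaving out endothelial cells with 2 or more Npr3 UMIs, chosen after seeing the data, gave 5.72 for H19 and 5.25 for Plagl1. Median-of-ratios scaling shifted all fibroblast ratios by 0.22, mural by 0.15 and macrophage by 0.11. The mesothelial bound for Plagl1, a minimum of -1.50 that carries no information, was 0.17 with doublets kept. Rian in fibroblasts was 0.15 with cells weighted alike, and Mest in mural cells, -1.60 from 3 MI and 9 sham UMIs, was -4.39 with classes from clusters.

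Counts of members moved as follows. At 500 UMIs per cell the number at least 2-fold lower was 1 in fibroblasts, as under median-of-ratios scaling, and 0 in mesothelial and macrophage cells, and the number higher was 0 in mural and mesothelial cells and 1 in macrophages, where few members kept 20 UMIs. The stricter gate gave 1 lower in mural and 1 higher in macrophage cells, and doublets kept 1 higher in macrophages. Clusters gave 2 higher and 1 lower in mural and 4 higher in macrophage cells, and no MI mesothelial cluster, so no value there. Without cycling cells 0 were higher in mural and 1 lower in mesothelial cells. Without barcodes ending in N 1 was higher in mesothelial cells. A minimum of 5 UMIs gave 2 higher and 1 lower in mural and 5 higher in macrophage cells. Among other imprinted genes this minimum gave 9 lower in fibroblasts, and 4 higher and 6 lower in macrophages, thinning gave 3 higher in fibroblasts, 0 lower in endothelial and 1 higher in macrophage cells, and 0 were lower in endothelial cells without cycling cells. The other counts stayed within 1.5 times. The cause of these changes was not tested. Mural and mesothelial values rest on 50 to 135 cells per library and are limited by counting.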
